A study of Mus musculus with 8 samples.

Results

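The interferon genes described here are 47 mouse genes for interferon receptors, the kinases and transcription factors that carry the signal, its inhibitors, and proteins made in response to it. They were picked by name and not by a threshold on the array values, but earlier results of these data were known when they were chosen. A probe was matched through its RefSeq accession for 44 of them, and 32 entered the test among 13539 genes because a probe was well above background on 4 or more of the 8 arrays. No probe was matched for Stat2, Mx1 and Mx2, which were not analysed here.

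The samples were primary spheres, free-floating clusters of cells grown from the superior mesenteric ganglion, a sympathetic ganglion of the abdomen. All donors were 3-week-old mice of the 129+Ter/SvJcl background that were hemizygous for TH-MYCN (TH-MYCN+/-). This transgene places human MYCN behind a tyrosine hydroxylase promoter, so that it is active in sympathetic cells, and the mice are a model of neuroblastoma. Dissociated cells of a ganglion were grown in parallel in RA (+) medium, which contains retinoic acid, and in RA (-) medium, which does not, and the spheres were collected after 8 days. Each medium had 4 arrays, from animals numbered 1 to 4, with no wild-type ganglion and no interferon-treated culture among the arrays analysed here. The comparison asks how spheres grown without retinoic acid differed in these genes from spheres of the same animals grown with it.

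Type I interferons bind a receptor made of Ifnar1 and Ifnar2, and interferon gamma binds one made of Ifngr1 and Ifngr2. The Janus kinases Jak1, Jak2 and Tyk2, attached to these receptors, phosphorylate STAT proteins. With Irf9 a STAT dimer binds the interferon-stimulated response element (ISRE) in front of many induced genes, while STAT homodimers bind the gamma-activated site (GAS). The induced proteins include sensors of foreign RNA, antiviral effectors and the inhibitors Socs1 and Socs3, which switch the kinases off again.

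The motifs these factors bind were common in front of the genes listed. Promoters were taken from RefSeq on GRCm38.p6, from 250 bases before to 50 bases after each start, and 40 of the 47 genes were in that table. The ISRE core, GAAA followed by any 2 bases and a further GAAA, read on both strands, was present in 19 of them, 47.5% (exact 95% interval 31.5% to 63.9%, for counting error alone), against 3.99% of all 27025 symbols in the table. The GAS letters, TTC and GAA with any 3 bases between them, were present in 12 of the 40, 30.0%, against 9.55% of all symbols. Where a gene has several starts, a match in any of them counted, and a match of both motifs may overlap. The following stretches of 120 bases show how the motif sits in genes whose values are given further on. They run 5′ to 3′ on the strand of the gene, with the matching bases in capitals. The first 6 show the ISRE core, and the last 2 show the GAS letters in genes that moved in opposite directions.
Isg15, chr4:156200819-156200938, minus strand: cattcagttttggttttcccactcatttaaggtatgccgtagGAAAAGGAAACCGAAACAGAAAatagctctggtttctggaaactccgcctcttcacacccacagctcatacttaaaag
Ifit1, chr19:34640769-34640888, plus strand: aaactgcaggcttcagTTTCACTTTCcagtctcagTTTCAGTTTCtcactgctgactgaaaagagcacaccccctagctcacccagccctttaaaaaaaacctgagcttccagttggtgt
Socs1, chr16:10785537-10785656, minus strand: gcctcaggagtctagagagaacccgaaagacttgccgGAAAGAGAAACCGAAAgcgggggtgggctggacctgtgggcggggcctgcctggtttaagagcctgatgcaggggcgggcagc
Ifitm2, chr7:140955962-140956081, minus strand: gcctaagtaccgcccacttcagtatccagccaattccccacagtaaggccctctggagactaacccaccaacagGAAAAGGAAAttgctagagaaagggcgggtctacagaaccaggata
Irgm1, chr11:48871421-48871540, minus strand: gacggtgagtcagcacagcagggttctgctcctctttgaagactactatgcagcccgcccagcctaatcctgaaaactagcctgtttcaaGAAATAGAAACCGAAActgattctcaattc
Cxcl10, chr5:92349000-92349119, minus strand: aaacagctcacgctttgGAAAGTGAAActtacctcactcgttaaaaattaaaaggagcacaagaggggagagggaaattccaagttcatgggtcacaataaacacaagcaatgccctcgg
Irf1, chr11:53769894-53770013, plus strand: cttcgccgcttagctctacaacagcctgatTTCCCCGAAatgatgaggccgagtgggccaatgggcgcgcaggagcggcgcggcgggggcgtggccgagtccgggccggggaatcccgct
Socs3, chr11:117969427-117969546, minus strand: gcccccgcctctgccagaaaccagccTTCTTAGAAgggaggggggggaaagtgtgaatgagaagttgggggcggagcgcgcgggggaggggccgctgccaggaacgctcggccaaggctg

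Genes with the ISRE core did not share 1 fate. Isg15 holds 3 overlapping matches and was lower without RA, Socs1 holds 2 and was higher, Irgm1 holds 2 and was not called, and Ifit1 holds 2 on the opposite strand and was above background on no array. Of the 19 genes with the core, 10 were tested, of which 7 were lower, 1 was higher and 2 were not called. Of the 21 genes without it, 18 were tested, of which 12 were lower, 2 were higher and 4 were not called. Of the genes with the core, 4 were above background on no array, against 1 of the genes without it. These shares are a description of a 300-base window and say nothing of the factor. The lists were chosen by name and many of these genes are known for such elements.

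Of the 44 genes with a probe, 6 were above background on none of the arrays, a smaller share than the 27.9% of all 20641 named genes. Irf7, the factor that amplifies type I interferon production, was 1 of them. The others were Usp18, a protease that removes Isg15 from proteins, Ifit1, which binds foreign RNA ends, Rsad2, the antiviral enzyme viperin, and the guanylate-binding proteins Gbp2 and Gbp3. A probe at background gives only an upper limit, so no fold is given for these 6 genes.

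A further 6 genes were above background on 1 to 3 arrays, and every one of those arrays was of RA (+) spheres. Dtx3l, a ubiquitin ligase that works with Parp9, and Igtp, an interferon-induced GTPase, were detected on 3 RA (+) arrays each. Ifit3 and Oas1a, which makes the 2-5A signal against viral RNA, were detected on 2 each, and the RNA sensor Ifih1 and the membrane protein Ifitm1 on 1 each. Among all genes with a named probe, 1326 were above background on 1 to 3 arrays. Of these, 47.8% were detected on RA (+) arrays alone and 32.7% on RA (-) arrays alone, so an excess on the RA (+) side was present in the whole series. Of the genes tested, 27 were above background on all 8 arrays, and Oasl2, Xaf1, Parp9, Parp14 and Cxcl10 on 4 to 7.

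**Figure D1:**
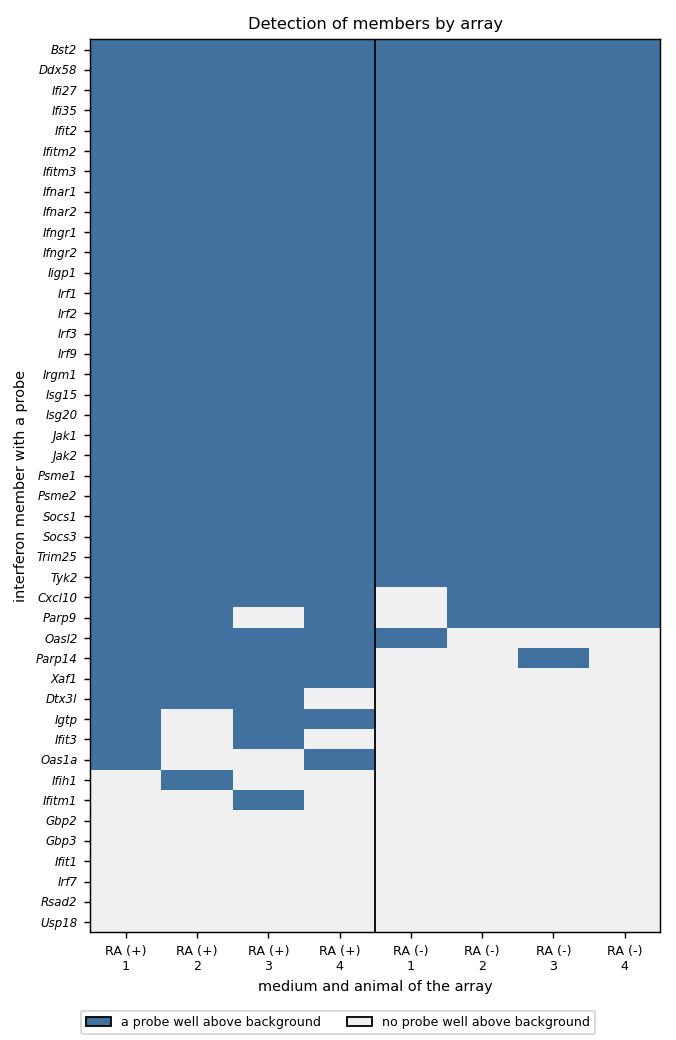
Detection of the 44 interferon genes with a probe (rows) on the 8 arrays (columns, by medium and animal). Dark cells mark a probe well above background; 27 genes are dark throughout, 6 are dark on 1 to 3 RA (+) arrays and on no RA (-) array, and 6 are dark nowhere.

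Among the 32 genes tested, 20 were lower and 3 were higher in RA (-) spheres at an adjusted p under 0.05 (limma, Benjamini-Hochberg over all tested genes), and 9 were not called. Changes in medium touched most of the transcriptome, and these counts are read beside that background. Of all 13539 genes, 64.3% were called, 36.1% higher and 28.2% lower, while of the interferon genes 71.9% were called, 9.38% higher and 62.5% lower. The share called was thus near the background, with more of the calls on the lower side than among all genes. The median log2 change of the 32 genes was −0.38, and that of all genes was 0.07. Levels of the 2 media did not overlap for 21 of the 32, against 53.3% of all genes. In RA (-) spheres 8 were lower and 1 was higher by at least 1 on the log2 scale, where 10.6% of all genes were lower and 7.52% higher by that much.

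**Figure D2:**
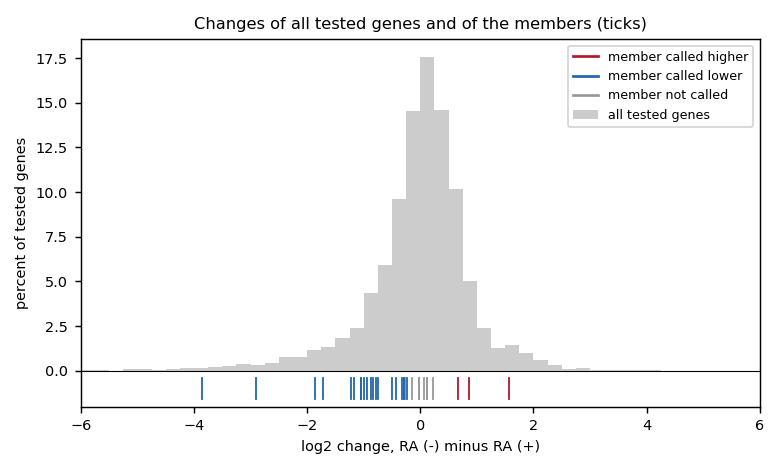
Log2 change, RA (-) minus RA (+), of all 13539 tested genes as a histogram (percent of genes per bin) and of the 32 interferon genes as ticks under it, coloured by call. Genes beyond 6 on either side are not drawn; most interferon ticks lie left of 0, with Oasl2 and Trim25 far out on the lower side.

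The shift was seen in every animal, with different sizes. In animals 1 to 4 the median change of the 32 genes was −0.62, −0.49, −0.56 and −0.22. Of the 32, 29, 24, 25 and 23 were lower without RA in these animals, whereas 45.0%, 44.0%, 47.3% and 44.5% of all genes were lower in the same animals. Animal 4 thus had the smallest shift and animal 1 the widest. In these bulk samples, fewer cells of a type and less RNA per cell cannot be told apart.

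**Figure D3:**
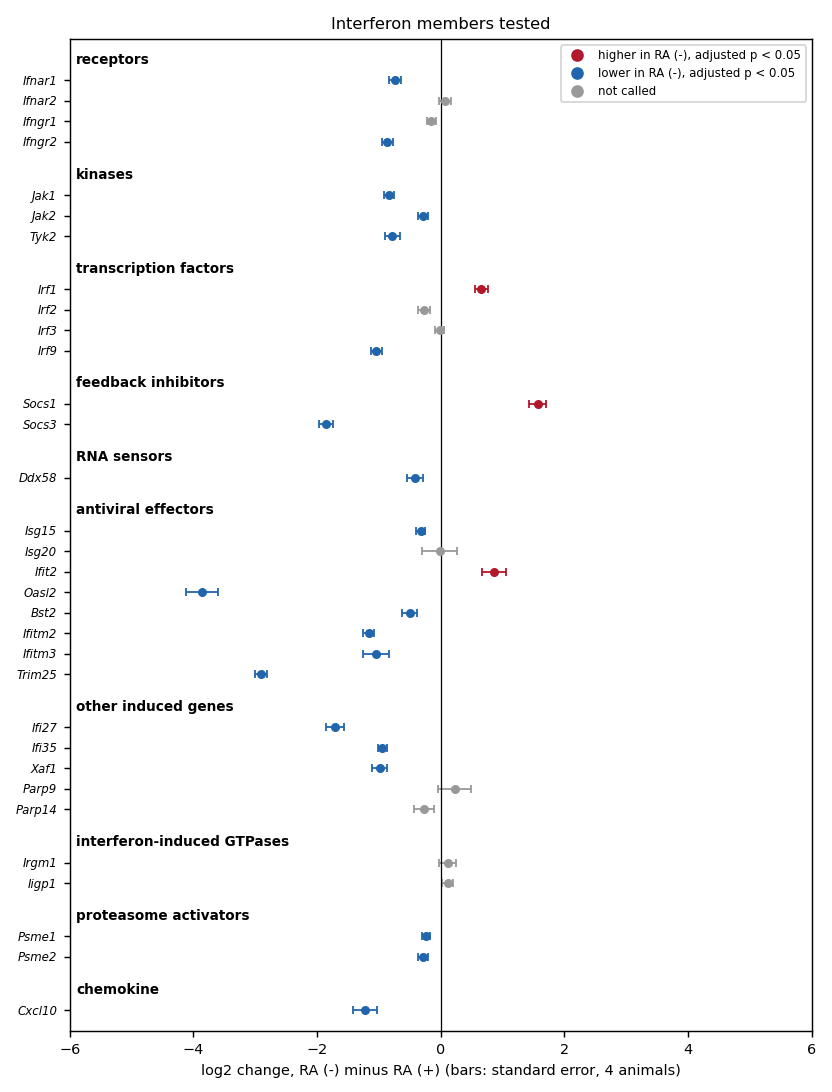
Log2 change of each tested interferon gene, RA (-) minus RA (+), with its standard error over 4 animals, grouped by role (genes in rows). Red and blue mark genes called higher and lower, grey those not called; the red points are Irf1, Socs1 and Ifit2.

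Of the 4 receptor chains, Ifngr2 and, on the probe used, Ifnar1 were called lower without RA, and Ifnar2 and Ifngr1 were not called. Levels in what follows are log2 signals after subtraction of each array's own 75th percentile, and levels of different genes are not set against each other because each probe has its own response. Ifnar1, the chain that pairs with Tyk2, stood at 2.95, 3.03, 2.87 and 2.74 on the RA (+) arrays of animals 1 to 4 and at 2.38, 2.18, 1.91 and 2.15 on the RA (-) arrays. All 4 RA (-) values lay under all RA (+) values, with a log2 change of −0.74 (SE 0.09, adjusted p = 0.00120, 1.67-fold lower). This result belongs to 1 probe: the other 2 probes of Ifnar1 that passed the filter gave −0.16 and 0.07, and the median probe gave 0.07 (adjusted p = 0.531), so the direction for Ifnar1 was not settled.

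Ifnar2, the high-affinity chain of the type I receptor, measured 0.37, 0.38, 0.43 and 0.47 with RA and 0.21, 0.66, 0.62 and 0.46 without. The groups overlapped and the animals split evenly, with a log2 change of 0.07 (SE 0.10, adjusted p = 0.542). Ifngr2, the signalling chain of the interferon gamma receptor, had levels of 2.28, 2.39, 2.51 and 2.34 with RA and 1.57, 1.50, 1.44 and 1.54 without. Its groups were far apart beside a spread of 0.10 and 0.06 (SD, n = 4 each), and the change was −0.87 (SE 0.09, adjusted p = 0.000501, 1.82-fold lower). Ifngr1, the ligand-binding chain, was at 1.44, 1.77, 1.89 and 1.74 with RA and at 1.33, 1.59, 1.71 and 1.61 without. It was lower in each animal by a small amount while the groups overlapped, and the change of −0.15 (SE 0.07) was not called (adjusted p = 0.0914). Ifngr1 was called lower in 3 of 14 alternative fits, among them quantile normalization (adjusted p = 0.0275).

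All 3 Janus kinases were lower. Jak1, which serves both receptors, fell by 0.84 on the log2 scale (SE 0.08, adjusted p = 0.000468), from 3.21, 3.22, 3.13 and 2.84 in animals 1 to 4 to 2.41, 2.23, 2.24 and 2.16. The lowest RA (+) value, that of animal 4, was still above the highest RA (-) value. Tyk2, the partner of Ifnar1, fell by 0.79 (SE 0.12, adjusted p = 0.00253), and by 0.38 with normexp, a background correction that shrinks changes of dim probes. Jak2, the kinase of Ifngr2, fell by 0.28 (SE 0.08, adjusted p = 0.0242). Its call was lost without animal 2, 3 or 4, with an adjusted p of 0.0893, 0.0523 and 0.0667, whereas the groups did not overlap.

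The transcription factors did not move together. Irf1, an activator that GAS-bound factors induce, was at 0.39, 0.43, 0.49 and 0.46 in RA (+) spheres and at 0.75, 1.15, 1.20 and 1.30 in RA (-) spheres. It was higher in all 4 animals with no overlap, and least so in animal 1. The change was 0.66 (SE 0.10, adjusted p = 0.00219, 1.58-fold higher). Irf9, the DNA-binding part of the type I interferon complex, went the other way, from 1.37, 1.29, 1.39 and 1.19 to 0.47, 0.15, 0.18 and 0.28. All RA (-) values lay under all RA (+) values, and the change was −1.04 (SE 0.09, adjusted p = 0.000282, 2.06-fold lower).

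Irf2, a competitor of Irf1 at the same elements, was at −1.07, −1.24, −1.07 and −1.25 with RA and at −1.29, −1.67, −1.46 and −1.25 without. In animal 4 both arrays rounded to the same value, and the change of −0.27 (SE 0.10) was not called (adjusted p = 0.0527). Irf2 was called lower in 5 of 14 alternative fits, among them the fit without animal 4 (adjusted p = 0.0362). Irf3, which responds to sensed nucleic acid before any interferon is made, was at 2.93, 2.90, 3.14 and 2.94 with RA and at 2.89, 2.98, 2.98 and 2.98 without. The groups overlapped and the change was −0.02 (SE 0.08, adjusted p = 0.831). With Irf7 at background, the 5 factors with a probe thus comprised 1 that was higher, 1 that was lower, 2 that were not called and 1 that could not be read.

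The 2 feedback inhibitors tested went in opposite directions. Socs1, which blocks the Janus kinases directly, was at −1.99, −1.62, −1.42 and −1.52 in RA (+) spheres and at −0.01, −0.05, −0.22 and −0.02 in RA (-) spheres. It was higher in each animal, by 1.57 (SE 0.13, adjusted p = 0.000312, 2.96-fold). Among all tested genes, 3.45% had a more positive change. Socs3, which acts mainly on receptors of the gp130 family and is also made in response to interferon, was at 1.56, 1.82, 1.54 and 1.28 with RA and at −0.37, −0.37, −0.22 and −0.30 without. The RA (-) values were close together, with an SD of 0.07 (n = 4), and far under the RA (+) values. The change was −1.86 (SE 0.11, adjusted p = 0.000125, 3.64-fold lower), and 95.4% of tested genes had a more positive one.

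**Figure D4:**
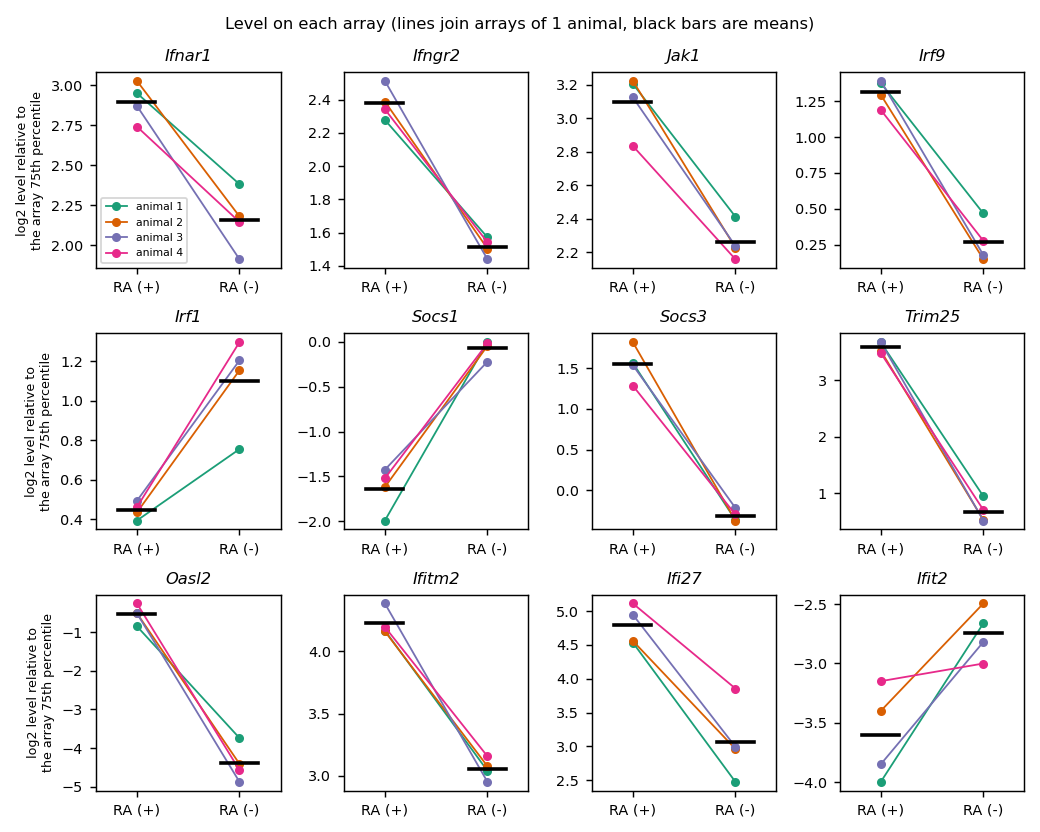
Level of 12 interferon genes on each array (log2 signal relative to the array's 75th percentile, each panel with its own axis), with lines joining the arrays of 1 animal and black bars for group means (n = 4). Irf1, Socs1 and Ifit2 rise from RA (+) to RA (-) in all 4 animals and the other 9 fall.

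Of the 2 RNA sensors, Ifih1 was not tested. Ddx58, the sensor RIG-I, was lower by 0.42 (SE 0.13, adjusted p = 0.0319) in 4 of 4 animals, with overlapping groups. Without animal 1 its adjusted p was 0.0760, and with normexp background correction the change was −0.16 (adjusted p = 0.129).

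The antiviral effectors held the widest changes. Of 15 listed, 8 were tested, 6 were lower, 1 was higher and 1 was not called, with a median of −0.78. Trim25, the ubiquitin ligase that activates RIG-I, was at 3.66, 3.52, 3.67 and 3.48 with RA and at 0.95, 0.53, 0.52 and 0.71 without. The groups lay far apart relative to their SDs of 0.10 and 0.20 (n = 4 each), and the change was −2.90 (SE 0.10, adjusted p = 4.38e-05, 7.47-fold lower). Its partner in this reaction, Ddx58, was described above with a change of −0.42.

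Oasl2, an OAS-like protein with ubiquitin-like domains, had levels of −0.85, −0.51, −0.51 and −0.26 with RA and −3.74, −4.41, −4.87 and −4.57 without. It was above background on all 4 RA (+) arrays and on 1 of 4 RA (-) arrays, so most of the RA (-) values are at the edge of what the arrays read. The change was −3.87 (SE 0.26, adjusted p = 0.000154, 14.6-fold lower), and −1.79 with normexp background correction.

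Of the Ifitm proteins, which sit in membranes and hinder virus entry, Ifitm2 was at 4.16, 4.16, 4.38 and 4.19 with RA and at 3.04, 3.08, 2.95 and 3.16 without. The change was −1.17 (SE 0.09, adjusted p = 0.000241, 2.25-fold lower), and no value of 1 medium reached the other. Ifitm3, a dimmer probe, was at −2.09, −1.17, −1.96 and −2.15 with RA and at −3.19, −2.98, −2.62 and −2.78 without. Animal 2 had the highest RA (+) value, and the change was −1.05 (SE 0.21, adjusted p = 0.00676), or −0.46 with normexp. The family has closely related genes, and how far a probe reads its neighbours was not tested.

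Ifit2, which binds RNA and slows translation, was the effector that rose. Its levels were −4.00, −3.40, −3.85 and −3.15 in RA (+) spheres and −2.66, −2.49, −2.82 and −3.00 in RA (-) spheres, against Ifit1 at background and Ifit3 detected on 2 RA (+) arrays alone. It was higher in all 4 animals, by 0.15 on the log2 scale in animal 4 and by up to 1.34 in animal 1. The change was 0.86 (SE 0.19, adjusted p = 0.0107, 1.81-fold), and 0.28 with normexp background correction.

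The 3 remaining effectors moved little. Isg15, a ubiquitin-like protein joined to other proteins, fell by 0.33 (SE 0.08, adjusted p = 0.0117) in all 4 animals without overlap, and without animal 2 its adjusted p was 0.0548. Bst2, or tetherin, which holds budding virus at the cell surface, fell by 0.50 (SE 0.12, adjusted p = 0.0123), and by 0.26 with normexp. Isg20, an RNA exonuclease, varied widely, from −2.14 to −0.28 with RA and from −1.58 to −0.43 without, and its change of −0.02 (SE 0.28) was not called (adjusted p = 0.962). A second passing probe of Isg20 gave 0.56, and without animal 4 the change was −0.39 (adjusted p = 0.0459).

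Among the other induced genes, 3 of the 5 tested were lower. Ifi27, a small membrane protein of mitochondria and the nuclear envelope, was at 4.53, 4.56, 4.95 and 5.11 with RA and at 2.48, 2.96, 2.99 and 3.86 without. In both media animal 1 had the lowest level and animal 4 the highest, and the change within animals was −1.72 (SE 0.15, adjusted p = 0.000318, 3.28-fold lower). Ifi35, a protein that binds Nmi, fell by 0.95 (SE 0.07, adjusted p = 0.000200). Xaf1, which opposes the apoptosis inhibitor XIAP, was above background on 4 RA (+) and 0 RA (-) arrays, so its level without RA is a bound. With the main processing it was at least 1.45-fold lower (adjusted p = 0.00121). Its smallest log2 change over the alternatives was −0.18, so the bound does not hold for all of them.

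Parp9 and Parp14, ADP-ribosyltransferases that take part in interferon signalling, were not called. Parp9 had a change of 0.23 (SE 0.27, adjusted p = 0.494), and without animal 1 it was 0.57 (adjusted p = 0.0163). Parp14 had a change of −0.28 (SE 0.17, adjusted p = 0.194), and without animal 4 it was −0.47 (adjusted p = 0.0259). For both genes the groups overlapped, and the values lay near the background.

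The interferon-induced GTPases, which act on vacuoles that hold parasites, did not pass the test. Irgm1 and Iigp1 had changes of 0.11 each (SE 0.14 and 0.08, adjusted p = 0.503 and 0.292), with overlapping groups. The other 3, Gbp2, Gbp3 and Igtp, were not tested. Psme1 and Psme2, the subunits of the PA28 proteasome activator that interferon gamma induces, were lower by small amounts. Psme1 fell by 0.23 (SE 0.07, adjusted p = 0.0229) and Psme2 by 0.29 (SE 0.08, adjusted p = 0.0255). Psme1 was not called without animal 1, 2 or 4 (adjusted p = 0.0802, 0.0776 and 0.0783), and Psme2 was not called without animal 1, 2 or 3 (adjusted p = 0.0907, 0.0957 and 0.0583). With normexp the decreases were 0.38 and 0.53. Neither passed without the block for the animal, with an adjusted p of 0.0525 and 0.101.

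Cxcl10, the chemokine that draws T cells to sites of interferon, was at −2.96, −2.14, −2.16 and −2.08 with RA and at −4.79, −2.73, −3.38 and −3.36 without. It was lower in every animal, but animal 1 was low in both media, so that its RA (+) value lay under the RA (-) value of animal 2. The change was −1.23 (SE 0.20, adjusted p = 0.00276, 2.35-fold lower), and −0.38 with normexp. On the RA (-) array of animal 1 the probe was not above background.

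Most genes that encode the interferons themselves stayed at or near background. A list of 12 ligand and interferon lambda receptor genes gave 5 tested, 2 higher, 1 lower and a median of 0.08. The share called was 60%, beside 64.3% of all tested genes. Ifnb1, Ifng, Ifne, Ifnk and Ifna4 were above background on no array. Ifnl3, an interferon lambda, was above background on all 8 arrays, with levels of −2.46 ± 0.15 with RA and −2.38 ± 0.80 without (SD, n = 4 each), and was not called. Ifna1 and Ifna5, closely related members of the alpha family whose probes may read each other, were higher by 0.26 (SE 0.07, adjusted p = 0.0222) and 0.25 (SE 0.09, adjusted p = 0.0465). They lay close to background with overlapping groups, and without animal 2 their adjusted p was 0.0885 and 0.136, without animal 4 0.0926 and 0.179, and for Ifna5 without animal 3 0.0867. With normexp their changes were 0.014 and 0.073 (adjusted p = 0.863 and 0.345). Il10rb, the receptor chain that interferon lambda shares with interleukin 10, fell by 1.87 (SE 0.15, adjusted p = 0.000268, 3.64-fold), and by 0.62 with normexp. It was above background on 4 RA (+) and 2 RA (-) arrays.

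Genes that sense nucleic acids and pass the signal to Irf3 were split, with 4 of 13 tested higher, 4 lower and a median of −0.14. Each share was 30.8%, near the 36.1% higher and 28.2% lower of all tested genes. Mb21d1 (cGAS), the DNA sensor, fell by 1.09 (SE 0.10, adjusted p = 0.000426), while a second passing probe of it gave 0.34, so its direction was not settled. With normexp its change was −0.55. Tmem173 (STING), the adaptor that acts next after cGAS, rose by 0.89 (SE 0.07, adjusted p = 0.000216, 1.86-fold), and by 0.56 with normexp. The RNA branch held lower values for Mavs, the mitochondrial adaptor, with −0.51 (SE 0.09, adjusted p = 0.00341), for Dhx58 with −0.48 (SE 0.10, adjusted p = 0.00661; −0.22 with normexp) and for Traf3 with −0.32 (SE 0.09, adjusted p = 0.0250). Without animal 2 or 3 the adjusted p of Traf3 was 0.0994 and 0.0671. Irf2bp2, Tank and Irf2bp1, which bind Irf2 or the kinase Tbk1, were higher by 0.44, 0.36 and 0.21, and a second probe of Irf2bp2 gave 0.075. Tank was not called when any of animals 1 to 3 was left out (adjusted p = 0.0505, 0.116 and 0.103) and was 0.16 with normexp (adjusted p = 0.0548), nor was Irf2bp1 without animal 1, 2 or 4 (adjusted p = 0.115, 0.123 and 0.0918).

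Other regulators of the pathway gave 3 higher and 4 lower of 11 tested, with a median of −0.17. The share called was 63.6%, near the 64.3% of all tested genes. The cytokine-signalling inhibitors Socs2 and Cish, of the same family as Socs1 and Socs3, fell by 1.78 (SE 0.14, adjusted p = 0.000254) and 1.41 (SE 0.17, adjusted p = 0.000971), so that Socs1 was the 1 of these 4 relatives that was higher. Ube2l6, the conjugating enzyme for Isg15, fell by 0.58 (SE 0.08, adjusted p = 0.00144). Ptpn1, a phosphatase of Jak2 and Tyk2, fell by 0.33 (SE 0.10, adjusted p = 0.0329), and its adjusted p was 0.122 without animal 2 and 0.0951 without animal 3. The STAT inhibitors Pias1 and Pias2 and the phosphatase Ptpn11 were higher by 0.52, 0.33 and 0.30. Ptpn11 was not called without animal 1, 2 or 4 (adjusted p = 0.0586, 0.0560 and 0.0574), and its change was 0.025 with quantile normalization (adjusted p = 0.798) and 0.073 with normexp (adjusted p = 0.385).

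A longer list of 54 induced genes leaned the same way as the effectors. Of 26 tested, 14 were lower (53.8%, against 28.2% of all genes) and 6 higher (23.1%, against 36.1%), with a median of −0.47. Of the 48 genes of this list with a probe, 15 were above background on no array, beside 27.9% of all named genes. Trim21, an antibody receptor and ubiquitin ligase of the same family as Trim25, fell by 2.63 (SE 0.24, adjusted p = 0.000375), and by 0.88 with normexp, with its probe above background on 4 RA (+) arrays and 1 RA (-) array. Ifi30, a lysosomal thiol reductase, fell by 2.23 (SE 0.12, adjusted p = 0.000102). Oasl1, the relative of Oasl2, fell by 2.15 (SE 0.33, adjusted p = 0.00246), or by 0.67 with normexp, and was above background on 2 of 4 RA (-) arrays. Zc3hav1, the zinc finger antiviral protein, was above background on no RA (-) array. With the main processing it was at least 2.07-fold lower (adjusted p = 0.00673). Its smallest log2 change over the alternatives was −0.46, so the bound does not hold for all of them.

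In the opposite direction, the chemokine Ccl2 rose by 1.88 (SE 0.14, adjusted p = 0.000229), and by 0.57 with normexp, with its probe above background on 1 of 4 RA (+) and 4 of 4 RA (-) arrays and with overlapping groups. Sp110, a nuclear body protein, rose by 0.52 (SE 0.13, adjusted p = 0.0138), but by 0.08 with quantile normalization (adjusted p = 0.641) and 0.09 with normexp (adjusted p = 0.530). Pnpt1, a mitochondrial RNA exonuclease, rose by 0.51 (SE 0.10, adjusted p = 0.00515), and Samhd1, which breaks down nucleotides, by 0.47 (SE 0.10, adjusted p = 0.00704). Of all tested genes 36.1% were higher and 28.2% lower, and of those in the 4 lists together 27.3% and 41.8%. Over the 4 lists, 15 genes were higher and 23 lower of 55 tested, with a median of −0.19. The split moved to 8 and 26 when the percentile was taken over probes detected on all arrays, to 8 and 23 with normexp, and to 5 and 12 with spike-in scaling.

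**Figure D5:**
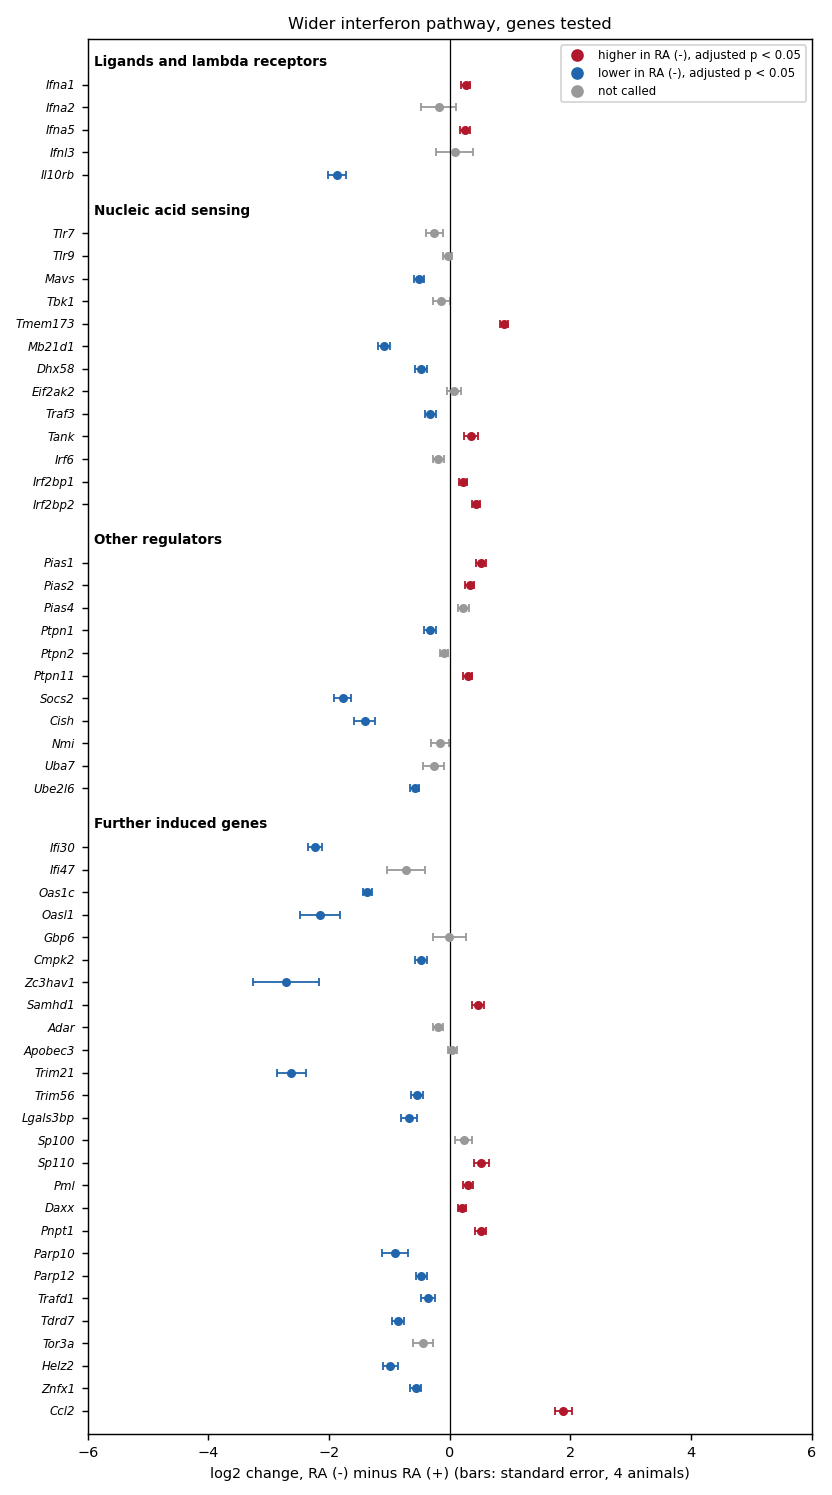
Log2 change, RA (-) minus RA (+), of the 55 tested genes of the 4 wider interferon lists, with standard errors over 4 animals (genes in rows, grouped by list). Red and blue mark genes called higher and lower; the long list of further induced genes has 14 blue and 6 red points.

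Cells other than neuroblasts can also carry interferon genes, so their markers were read on the same arrays. Of 18 markers of immune cells, Cd68 had no matched probe, and 9, among them Ptprc (CD45), Cd14 and Tyrobp, were above background on no array. The other 8 were tested, of which 4 were lower, 0 were higher and 4 were not called, beside 64.3% of all genes called. Their mean level ranged from −0.79 to −0.38 on RA (+) arrays and from −1.47 to −1.22 on RA (-) arrays, lower in 4 of 4 animals by 0.68 ± 0.11 (SD, n = 4; exact two-sided sign-flip test, adjusted p = 0.188 over 6 lists). With 4 animals the raw p of this test cannot go below 1 in 8, which was the value here. The macrophage markers Aif1 and Adgre1, above background on RA (+) arrays alone, were at least 1.49-fold and 1.44-fold lower, and with both at their bound the mean difference was −0.21. Itgam and Cd4, above background on all 8 arrays, were lower by 0.51 and 0.42 (limma, adjusted p = 0.00786 and 0.0250). A second passing probe of Itgam gave −0.16, and the groups of Cd4 overlapped. Csf1r, Fcer1g, Nkg7 and Cd3e had changes of 0.02, 0.33, 0.06 and −0.07 and were not called. The part of immune cells in the result was not tested.

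Of 3 markers of plasmacytoid dendritic cells, a main source of type I interferon, Ccr9 was above background on no array, and Bst2 is itself among the 47. Siglech was at 7.64 to 8.21 over all 8 arrays, with a change of 0.18 (limma, adjusted p = 0.175). Ccr9 and Ptprc were at background on the same arrays, and what the Siglech probe reads was not tested. Markers of glia, fibroblasts and endothelium differed by −0.36, −0.32 and −0.18 on average, or by 0.012 for fibroblasts with Dcn at its bound, with an exact sign-flip p of 0.188, 0.300 and 0.188 after adjustment over the 6 lists. The fibroblast marker Col1a2 was higher by 1.03 and Dcn, above background on no RA (-) array, was lower. Their part was not tested either.

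The labelled origin was checked on 5 markers of sympathetic neuroblasts, all above background on all 8 arrays. Dbh and Hand2 were lower by 1.53 and 0.39 on the log2 scale, Th was higher by 3.59, and Phox2a and Gata3 were not called. The 75th percentile of the arrays was 228 to 306 intensity units over a median background of 26 to 29, and 48.5% to 55.3% of spots were above background, with the lowest share on the RA (-) array of animal 4. The number of arrays limits the precision. The limma p-values rest on how far the difference between the media varied among these 4 animals, not on the spread of their levels.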

How the data were processed

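Transcripts were measured on 1-colour Agilent arrays of 8 sphere samples, all on 1 slide in 1 scan, so no batch could be compared. Per the file headers, the authors extracted spot intensity values with Agilent Feature Extraction 11.5.1.1 (design 028005, annotation on mm9), background-subtracted within each array and not scaled between arrays. The authors also deposited a log2 table; its columns matched the scanner values after centring each probe on its mean (r at least 0.9999 in each column), so scale, centring and direction are settled, and the exact scaling constant is unknown. Its column medians were −0.23, −0.22, 0.02 and −0.01 for RA (+) and −0.07, 0.01, 0.17 and 0.20 for RA (-) animals 1 to 4.

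Control and outlier spots were left out, which dropped 64 probes, and no remaining spot was saturated. Log2 processed intensity minus the array's 75th percentile was averaged per probe. Of 55617 probes, 27206 were named through their RefSeq accession and a RefSeq table of GRCm38.p6, giving 20641 symbols, and 28411 were unnamed. Promoters and coordinates are those of RefSeq on GRCm38.p6. Probes well above background on at least 4 arrays were kept, with 1 probe per gene by highest mean, leaving 13539 genes. RA (-) minus RA (+) was tested with limma 3.58.1 in R 4.3.3, two-sided, with the animal as a block and Benjamini-Hochberg adjustment. The pairing comes from the series description. Deviations from the medium means correlated by 0.52, 0.30, 0.19 and 0.33 within animals 1 to 4.

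Where no array of a medium was above background, a bound is given: the mean of the brighter medium against the dim medium, each dim array set at the higher of its lowest signal well above background and the probe's own. The script for the tests was tested on simulated data. Alternatives were the block, the percentile, quantile, spike-in and normexp scaling, the deposited log2 table, filters, the choice of probe, a trended robust fit and leaving out each animal. Normexp used median spot signals, since the files used here hold no mean signal.

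The interferon genes, the wider lists and the markers were chosen with earlier results of these data known. Some sympathetic markers are not reported here. Values by array are given for interferon genes called with a log2 change of at least 1, for those differing in direction from their role, and for the receptors and transcription factors. Jak1 was added to these after its values were seen. Of the wider lists, up to 4 called genes in each direction with the largest change are named.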

Additional observations from a re-analysis of the deposited data

Results flagged for a closer look

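In 64 groups of 4 arrays, 4 held a value that stood apart from the others by Dixon's criterion, which chance reaches in about 1 group of 20. Irf3 had 2 of them: RA (+) animal 3 at 3.14, with the others at 2.90 to 2.94, and RA (-) animal 1 at 2.89, with the others at 2.98. For Ifitm2, RA (+) animal 3 stood at 4.38, with the others at 4.16 to 4.19. For Cxcl10, RA (+) animal 1 stood at −2.96, with the others at −2.16 to −2.08.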

How the results depend on the processing

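Of the 23 interferon genes called, 16 kept their call and direction under each of the up to 14 alternatives that gave a value. The other 7, Ifnar1, Jak2, Ddx58, Isg15, Bst2, Psme1 and Psme2, were lost under spike-in scaling and, except Bst2, under at least 1 other. Spike-in scaling moved the median of all genes from 0.07 to 0.22 and left 13 interferon genes lower in place of 20, 12 genes of the wider lists lower in place of 23 and 5 higher in place of 15, and 1938 of all genes lower in place of 3820. The median of the interferon genes stayed 0.45 under that of all genes there, as the shift is common to every gene. The wider lists held 8 higher genes with the percentile over detected probes and 8 with normexp, and 8 to 13 when 1 animal was left out. Ifnar1 reversed, to 0.065, with the median of its probes. Over all alternatives 13 to 22 interferon genes were lower and 3 or 4 higher, and leaving out 1 animal gave 16 to 21 lower. Without the replicate block for the pairing, 17 were lower and 3 higher, and Ddx58 was lost (adjusted p = 0.0659) with Psme1 and Psme2. The fit without the filter called 4 of 44 higher and 20 lower, and the all-array filter gave Cxcl10, Oasl2 and Xaf1 no value. In the 100 bases before the start, 22.5% of the interferon promoters held the ISRE core against 1.14% of all symbols. A stricter core, with C after the last A, was in 35.0% against 0.944%. Signal over background limits Oasl2, Ifit2, Cxcl10, Ifitm3, Tyk2, Xaf1, Bst2 and Ddx58, whose change shrank by over 1.5 times with normexp.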
